A study of Mus musculus with 9 samples.

Results

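The mitochondrial fusion and fission machinery was followed through 7 genes, chosen by name for their known role, with earlier results of these data known: *Mfn1*, *Mfn2* and *Opa1* for fusion, *Oma1* for the processing of OPA1, and *Dnm1l*, *Fis1* and *Mff* for fission. All 7 were present among the 14011 genes of the deposited RNA-seq table. Polyadenylated RNA was sequenced from whole mouse hearts at E10.5, in 3 libraries per genotype, each made from a pool of 6 hearts of mixed strain background. Homozygotes carried Ctcf fl/fl with one copy of the *Nkx2.5-Cre* driver, and heterozygotes carried Ctcf fl/+ with the same driver. Controls had no Cre, and the sample labels give their genotype as Ctcf fl/fl while the methods of the study give Ctcf fl/+. The driver was therefore shared by homozygotes and heterozygotes and absent from controls, so a comparison with controls contains both the deletion and the driver. *Nkx2.5-Cre* recombines in cardiac progenitors and their descendants, and other cells of the same hearts keep intact alleles. The comparisons asked whether the transcript levels of this machinery differed between hearts in which *Ctcf*, encoding a DNA-binding organizer of chromatin loops, was deleted in this lineage and hearts in which it was not.

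Mitochondria continually join and divide. Mitofusins on the outer membrane and the dynamin-like GTPase OPA1 on the inner membrane join the organelles, and the protease OMA1 cleaves OPA1 when the membrane potential falls. Division is carried out by the cytosolic GTPase DRP1, the product of *Dnm1l*, which is recruited to the outer membrane by adaptors such as MFF. In the heart, the loss of both mitofusins is known to disturb cardiac development, and fusion and fission are both needed for the quality control of cardiac mitochondria.

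The libraries held between 4294537 and 11629365 reads over the genes of the table, and each of the 7 genes was covered by 55 to 1891 reads in every library. In what follows, 3 values of one genotype run from its deepest to its shallowest library, the normalized values are the deposited ones, and n = 3 libraries per genotype throughout. The labels do not state that pools were independent beyond being separate replicates, so p-values measure the spread between these pools. *Ctcf*, the targeted gene, stood at 122, 121 and 122 in controls, at 101, 94.2 and 97.0 in heterozygotes and at 84.7, 80.0 and 79.6 in homozygotes. Its homozygote mean was thus 67.0% of the control mean and its heterozygote mean 80.1%, with no overlap between any pair of genotypes.

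The hearts carried cardiomyocyte transcripts at high levels in every library, with a summed normalized value of 10 cardiomyocyte markers between 17354 and 23520. Of these 10, 1 was higher and 3 were lower in homozygotes than in controls at an adjusted p under 0.05 (median log2 difference -0.14), and 5 were lower than in heterozygotes (median -0.32). Markers of other cell types also differed with genotype. All 9 erythroid markers were higher in homozygotes than in controls by the same threshold, with a summed value of 62677 to 82920 against 35735 to 51198 in controls and 28722 to 48273 in heterozygotes. Of 7 epicardial markers, 4 were higher, with sums of 573 to 640 against 412 to 475 in controls. Of 7 cushion mesenchyme markers, 3 were lower, with sums of 838 to 960 against 1039 to 1127, and of 9 endothelial and endocardial markers 1 was higher and 2 were lower. Of 7 macrophage markers, 1 was lower. Over all genes, 15.2% passed this threshold against controls and 13.6% against heterozygotes, so small counts such as 1 of 7 are near these shares. No liver or endoderm marker passed the test, but the control library with 8457617 reads stood apart, with a summed value of 887 against 75.1 to 80.0 in the other control libraries. These are bulk values, in which fewer cells of a type and less RNA per cell cannot be told apart.

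Per kilobase of annotated exon, the 7 genes spanned a wide range of levels. *Fis1* and *Dnm1l* were the most abundant in controls, at 43.2 ± 3.75 and 42.0 ± 1.83 normalized value per kb (mean ± SD), and their ranges overlapped. *Mfn2* followed at 29.1 ± 1.31, *Mff* at 25.4 ± 1.99, *Opa1* at 16.4 ± 0.962, *Mfn1* at 15.0 ± 0.658 and *Oma1* at 7.78 ± 0.625, and the ranges of these neighbours did not overlap. Over all 9 libraries, *Fis1* lay at the 91.5th percentile of per-kb levels among 13987 annotated genes and *Oma1* at the 52.0th. The order was not the same in homozygotes. There *Fis1*, at 52.2 ± 2.12 per kb, stood above *Dnm1l*, at 41.0 ± 2.28, in each of the 3 libraries and without overlap. *Mff*, at 29.5 ± 1.21, and *Mfn2*, at 28.5 ± 1.88, had changed places with overlapping ranges, and *Opa1*, at 14.3 ± 0.738, and *Mfn1*, at 13.4 ± 0.664, also overlapped. In heterozygotes the order was *Dnm1l*, *Fis1*, *Mfn2*, *Mff*, *Opa1*, *Mfn1* and *Oma1*, with overlap between *Dnm1l* and *Fis1* and between *Opa1* and *Mfn1*. These per-kb values take the exons of all transcripts of a gene together, so the order depends on how that length is counted.

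The promoters of 4 of the genes are shown because these genes had no overlap between homozygotes and either other genotype: *Fis1* and *Mff* on the fission side, *Mfn1* and *Opa1* on the fusion side. Each window is a RefSeq promoter on GRCm38.p6, running from 250 bases before to 50 bases after an annotated start, in the direction of transcription, and this build differs from the NCBIM37 build of the expression table. All 7 genes had at least 1 window in the RefSeq set, and the first listed is printed for each. Capitals mark matches, on either strand, to short motifs searched in all windows: CCGGAAGT, the site of ETS factors, GCGCATGC, part of the NRF1 site, AGGGGGCG, part of the CTCF core, and AAGATGGC, the site of YY1.
*Fis1*, chr5:136953025-136953324, plus strand: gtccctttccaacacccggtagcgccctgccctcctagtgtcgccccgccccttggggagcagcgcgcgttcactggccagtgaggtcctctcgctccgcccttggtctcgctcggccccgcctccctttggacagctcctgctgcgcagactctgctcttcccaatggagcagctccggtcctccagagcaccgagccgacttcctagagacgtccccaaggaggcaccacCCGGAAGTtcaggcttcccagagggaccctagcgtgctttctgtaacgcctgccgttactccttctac
*Mff*, chr1:82724640-82724939, plus strand: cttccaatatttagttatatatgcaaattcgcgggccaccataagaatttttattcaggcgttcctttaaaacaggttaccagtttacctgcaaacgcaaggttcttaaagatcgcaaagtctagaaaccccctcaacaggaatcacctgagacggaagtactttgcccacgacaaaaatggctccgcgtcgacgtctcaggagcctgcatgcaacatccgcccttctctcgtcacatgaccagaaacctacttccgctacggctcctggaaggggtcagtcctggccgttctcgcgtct
*Mfn1*, chr3:32529232-32529531, plus strand: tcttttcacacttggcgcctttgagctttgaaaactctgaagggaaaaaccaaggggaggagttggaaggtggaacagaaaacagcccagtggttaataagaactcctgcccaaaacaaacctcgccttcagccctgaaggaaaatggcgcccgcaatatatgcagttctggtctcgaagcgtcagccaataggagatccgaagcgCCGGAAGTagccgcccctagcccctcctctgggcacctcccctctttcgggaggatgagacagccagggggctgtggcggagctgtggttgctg
*Opa1*, chr16:29579084-29579383, plus strand: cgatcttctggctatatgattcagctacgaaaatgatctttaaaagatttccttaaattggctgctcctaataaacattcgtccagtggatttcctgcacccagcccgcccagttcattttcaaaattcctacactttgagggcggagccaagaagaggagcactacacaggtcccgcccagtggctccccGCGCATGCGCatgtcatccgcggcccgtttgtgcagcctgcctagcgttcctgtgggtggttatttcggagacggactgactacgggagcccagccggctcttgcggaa
The ETS letters stood 18 to 11 bases before the *Fis1* start and 44 to 37 bases before the *Mfn1* start, and were also present at positions 20 to 27, counted from the start, in a further *Fis1* window. The *Opa1* window held the NRF1 letters on both strands, in 2 overlapping matches that together ran from 59 to 50 bases before the start. The *Mff* windows held no exact match to the 4 motifs, nor did those of *Mfn2* and *Dnm1l*. Variants that differ by 1 letter, such as acggaagt in the printed *Mff* window, were not searched. Of the 7 genes, *Oma1* alone matched the CTCF letters, 48 to 41 bases before its start. Of 32817 mouse promoter windows of this length, 3.89% held the ETS letters, 2.71% the NRF1 letters, 6.07% the CTCF letters and 2.74% the YY1 letters, the last with no match in the 7 genes. The motifs were chosen after the windows had been seen and the shares are per window, while a gene here has 1 to 3 windows, so the matches are not to be read against these shares. A match is a description of the sequence only, and binding was not measured in these libraries.

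*Fis1* was the one gene of the 7 that differed from controls at an adjusted p under 0.05, and it was higher. *Fis1* (ENSMUSG00000019054; NCBIM37 chromosome 5, 137429145 to 137442104, plus strand) encodes a small tail-anchored protein of the outer mitochondrial membrane that takes part in fission. Its normalized values were 77.5, 77.9 and 66.6 in controls, 77.2, 76.6 and 72.5 in heterozygotes and 87.0, 87.8 and 93.7 in homozygotes. All homozygote libraries lay above every library of the other genotypes, and controls and heterozygotes overlapped. The homozygote mean, 89.5 ± 3.64, was 121% of the control mean, 74.0 ± 6.43, and 119% of the heterozygote mean, 75.5 ± 2.55. *Fis1* rose in homozygotes by 0.28 on the log2 scale against controls (SE 0.071, adjusted p = 0.0200, limma over all 14011 genes with Benjamini-Hochberg adjustment) and by 0.24 against heterozygotes (SE 0.071, adjusted p = 0.0377, limma). Both comparisons share the homozygote libraries.

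The *Fis1* call depended on single libraries and on the fit. Without the control library of 6698891 reads, which had the lowest control value, the difference from controls was 0.20 with an adjusted p of 0.0945 (limma), and without the homozygote library of 4437234 reads it was 0.24 with an adjusted p of 0.0628 (limma). It was also lost with limma without the mean-variance trend (adjusted p = 0.0667) and with the length trend removed, without or with a replicate block (adjusted p = 0.0577 and 0.0635, limma). Over all alternatives the adjusted p ranged from 0.0136 to 0.0945 and 16 of 21 kept the call. Against heterozygotes 11 of 21 kept it, and leaving out any 1 of the 6 libraries compared ended it, with adjusted p between 0.0640 and 0.118 (limma), as did DESeq2 (adjusted p = 0.0886), the fit without the trend (adjusted p = 0.0979, limma) and the length removal (adjusted p = 0.0898, limma). The part of the erythroid and epicardial RNA, whose marker sums were also above the control range in all homozygote libraries, was not tested.

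**Figure D1:**
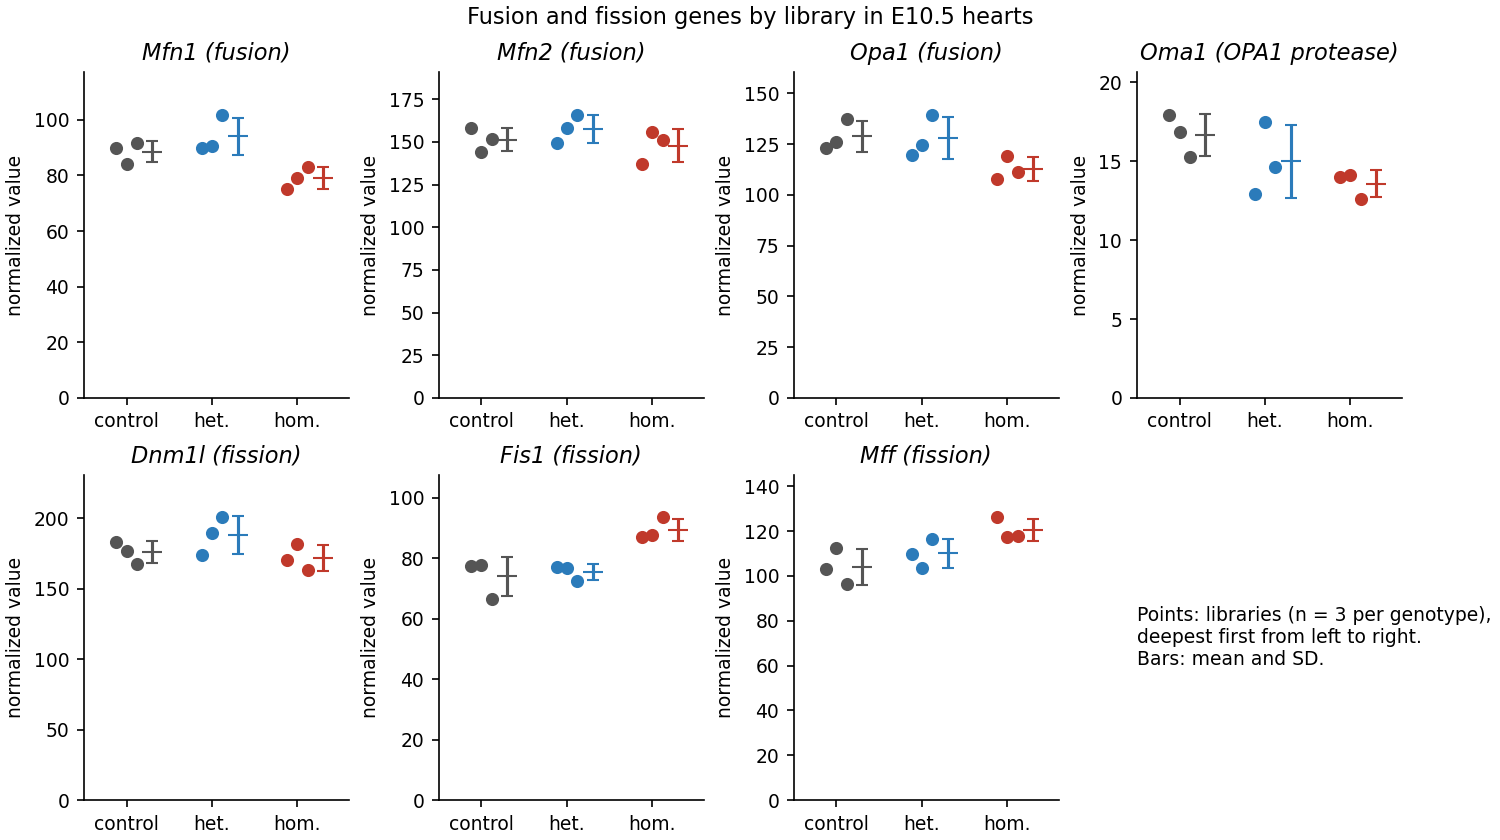
Normalized value (y axis, from 0) of each of the 7 genes in control, heterozygote (het.) and homozygote (hom.) hearts; points are libraries, deepest to shallowest from left to right, and bars are mean and SD of 3 libraries. *Fis1* and *Mff* in homozygotes sit above all other libraries, *Mfn1* and *Opa1* below them, and *Mfn2* and *Dnm1l* overlap across genotypes.

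*Mff* stood next to *Fis1*. *Mff* (ENSMUSG00000026150; chromosome 1, 82721465 to 82748969, plus strand) encodes the mitochondrial fission factor, an outer membrane adaptor for DRP1. It measured 103, 113 and 96.4 in controls, 110, 104 and 117 in heterozygotes and 126, 118 and 118 in homozygotes. The homozygote libraries again lay above all others, but the lowest of them exceeded the highest heterozygote library by a small margin, 118 against 117. The log2 difference from controls was 0.21 (SE 0.069, 95% interval 0.064 to 0.36, adjusted p = 0.0536, limma) and that from heterozygotes 0.13 (95% interval -0.017 to 0.28, adjusted p = 0.237, limma), so neither passed the threshold. The first was past it under 5 of 21 alternatives, among them without the control library of 8457617 reads, the one with high liver markers, where it was 0.27 with an adjusted p of 0.0322 (limma). Of the exonic bases of *Mff*, 4.77% overlap *C430014B12Rik* on the opposite strand. Reads there cannot be assigned with certainty, since no strand setting was given in the sources used here.

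*Dnm1l*, the gene for the fission GTPase itself, showed no such separation. *Dnm1l* (ENSMUSG00000022789; chromosome 16, 16312328 to 16359123, minus strand) measured 183, 177 and 168 in controls, 174, 189 and 201 in heterozygotes and 170, 182 and 163 in homozygotes. The 3 genotypes overlapped, and the highest single value was in a heterozygote library. The homozygotes differed from controls by -0.034 on the log2 scale (95% interval -0.18 to 0.11, adjusted p = 0.779, limma) and from heterozygotes by -0.13 (95% interval -0.27 to 0.013, adjusted p = 0.225, limma). The longest alignment of its transcript elsewhere in the genome, at 90.2% identity at most, covered 1526 bases, and none reached 95% identity. No copy of at least 200 bases at 90% identity was found for the other 6 genes.

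Among the fusion genes, *Mfn1* passed the test against heterozygotes and was lower in homozygotes. *Mfn1* (ENSMUSG00000027668; chromosome 3, 32428387 to 32478161, plus strand) encodes mitofusin 1, a GTPase that tethers outer membranes. It measured 90.02, 84.2 and 91.6 in controls, 89.8, 90.8 and 102 in heterozygotes and 75.2, 79.1 and 83.0 in homozygotes. Every homozygote library was below every other library. The log2 difference from heterozygotes was -0.25 (SE 0.068, adjusted p = 0.0288, limma), with a homozygote mean at 84.0% of the heterozygote mean. Against controls it was -0.16 (95% interval -0.31 to -0.016, adjusted p = 0.128, limma), at 89.3% of the control mean. The call against heterozygotes was kept by 13 of 21 alternatives. It ended without the heterozygote library of 4294537 reads (-0.19, adjusted p = 0.114, limma), without the homozygote library of 11629365 reads (-0.21, adjusted p = 0.111, limma) and without that of 6139084 reads (-0.25, adjusted p = 0.0625, limma). It also ended with DESeq2 (adjusted p = 0.0626), without the mean-variance trend of limma (adjusted p = 0.0839), and with the length trend removed or a replicate block, alone or together (adjusted p = 0.0549 to 0.119, limma). Cardiomyocyte marker sums were also below every heterozygote library in each homozygote library, 17354 to 20272 against 20707 to 23520, with 5 of 10 markers lower, and their part in the result was not tested.

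*Mfn2* did not pass the test in any comparison. *Mfn2* (ENSMUSG00000029020; chromosome 4, 147247708 to 147278813, minus strand) encodes the other mitofusin, which also sits at contacts with the endoplasmic reticulum. Its values of 158, 144 and 152 in controls, 149, 158 and 166 in heterozygotes and 137, 156 and 151 in homozygotes overlapped across all genotypes. The differences of homozygotes were -0.035 from controls (95% interval -0.18 to 0.11, adjusted p = 0.768, limma) and -0.095 from heterozygotes (95% interval -0.24 to 0.045, adjusted p = 0.375, limma). The *Mfn1* to *Mfn2* ratio, both per kb, was 0.501 to 0.531 in controls, 0.505 to 0.540 in heterozygotes and 0.447 to 0.484 in homozygotes, where it was below all other libraries.

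*Opa1* (ENSMUSG00000038084; chromosome 16, 29579420 to 29654970, plus strand), encoding the inner membrane fusion GTPase, measured 123, 126 and 137 in controls, 119, 125 and 139 in heterozygotes and 108, 119 and 111 in homozygotes. The homozygote libraries were lowest, separated from the lowest heterozygote library by less than 1 unit. The log2 difference was -0.19 from controls (95% interval -0.34 to -0.039, adjusted p = 0.0853, limma) and -0.18 from heterozygotes (95% interval -0.33 to -0.026, adjusted p = 0.115, limma). With the trend of fold changes with gene length removed, these differences were -0.079 and -0.098. *Oma1* (ENSMUSG00000035069; chromosome 4, 102986417 to 103044473, plus strand), encoding the protease that cleaves OPA1, had the lowest level and the widest errors. It measured 17.9, 16.8 and 15.3 in controls, 12.9, 17.5 and 14.6 in heterozygotes and 14.0, 14.1 and 12.6 in homozygotes. Homozygotes lay below all controls and overlapped the lower part of the heterozygote range. The log2 difference of *Oma1* from controls was -0.29 (SE 0.13, 95% interval -0.56 to -0.012, adjusted p = 0.152, limma), larger in size than that of *Fis1* but with a larger error, from 55 to 176 reads per library.

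**Figure D2:**
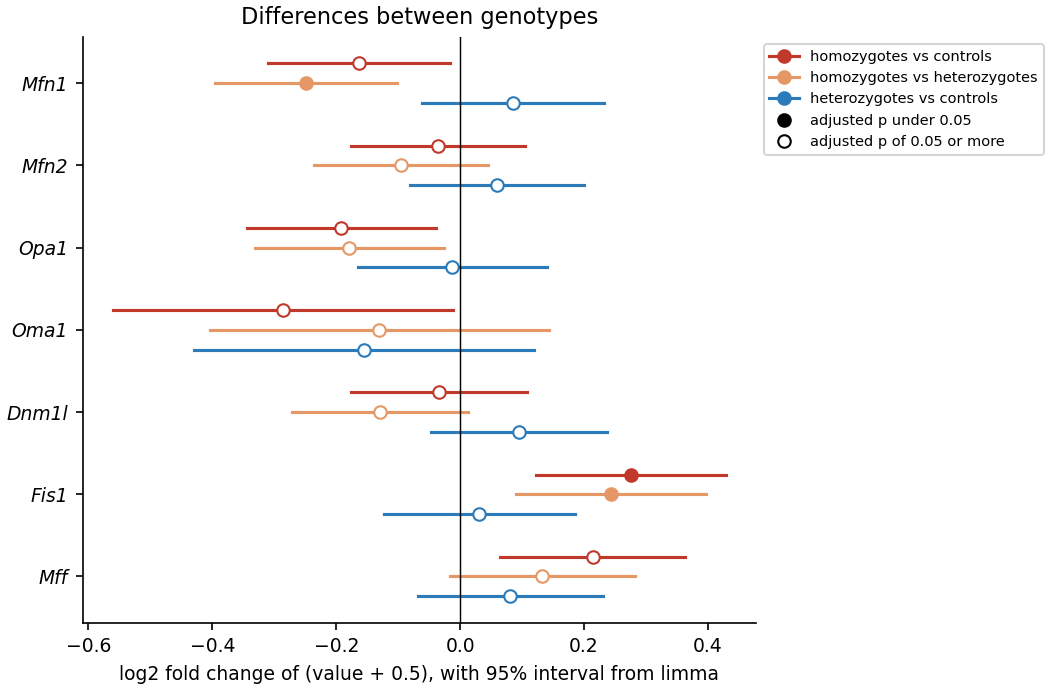
Log2 fold change of each gene (x axis) with its 95% interval from limma for 3 comparisons between genotypes; filled points have an adjusted p under 0.05 over all genes. *Fis1* is to the right of 0 against controls and against heterozygotes, *Mfn1* to the left of 0 against heterozygotes, and the heterozygote intervals against controls all include 0.

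Counted together, 1 of the 7 genes was called between homozygotes and controls, against a background of 15.2% of all genes tested (7.19% higher and 8.03% lower). The share of these 7 genes, 14.3%, was near that background. At an unadjusted p under 0.05, 5 of 7 differed, against 29.6% of all genes, and of these *Fis1* and *Mff* were higher and *Mfn1*, *Opa1* and *Oma1* lower, while *Mfn2* and *Dnm1l* did not pass that level. The same 5 genes had no overlap between homozygotes and controls, against 33.2% of all genes, with 2 of them higher throughout (background 16.6%) and 3 lower throughout (background 16.5%). Between homozygotes and heterozygotes, 2 of 7 were called, against 13.6% of all genes, 1 higher (background 6.87%) and 1 lower (background 6.7%), and 3 of 7 had an unadjusted p under 0.05, against 27.6%. There 4 of 7 did not overlap, against 30.8% of all genes: *Fis1* and *Mff* were higher in every homozygote library, and *Mfn1* and *Opa1* lower. With 7 genes, a count differs from these backgrounds by 1 or a few genes.

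Heterozygotes were not distinguished from controls in any of the 7 genes. None was called by limma, against 0.143% of all genes (0.0928% higher and 0.05% lower), none had an unadjusted p under 0.05, against 7.37%, and none was called by edgeR or DESeq2. No gene of the 7 separated the groups, against 14.3% of all genes (7.41% higher and 6.93% lower throughout). The log2 differences ran from -0.16 for *Oma1* (95% interval -0.43 to 0.12) to 0.095 for *Dnm1l* (95% interval -0.047 to 0.24). For *Fis1* the difference was 0.031 (95% interval -0.12 to 0.18) and for *Mfn1* 0.085 (95% interval -0.062 to 0.23).

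The relation of fusion to fission transcripts within each library was described by the mean log2(value + 0.5) of *Mfn1*, *Mfn2* and *Opa1* minus that of *Dnm1l*, *Fis1* and *Mff*. This level difference was 0.085, -0.0055 and 0.27 in controls, 0.039, 0.082 and 0.16 in heterozygotes and -0.25, -0.12 and -0.12 in homozygotes. All 3 homozygote libraries were below all others, and controls and heterozygotes overlapped. The fission level alone was 6.93 to 6.95 in homozygotes, 6.69 to 6.86 in controls and 6.84 to 6.91 in heterozygotes. The fusion level alone was 6.70 to 6.83, 6.86 to 6.96 and 6.88 to 7.06 in the same order. Homozygotes did not overlap the rest on either side, but the margins were small. The nearest libraries stood at 6.933 against 6.905 for fission and at 6.834 against 6.856 for fusion. On the fission side the separation came from *Fis1* and *Mff*, not *Dnm1l*. On the fusion side it came from *Mfn1* and *Opa1*, while *Mfn2* overlapped across genotypes. No length trend was removed from these levels. The ratio of *Fis1* to *Dnm1l*, both per kb, was 1.04, 1.08 and 0.970 in controls, 1.08, 0.989 and 0.882 in heterozygotes and 1.248, 1.18 and 1.40 in homozygotes. The ratio of *Mff* to *Dnm1l* was 0.578 to 0.651 in controls, 0.560 to 0.646 in heterozygotes and 0.661 to 0.759 in homozygotes. *Fis1* to *Mfn1* was 2.505 to 3.19, 2.45 to 2.96 and 3.82 to 3.99, the widest gap of the ratios computed. *Oma1* to *Opa1* overlapped across genotypes, at 0.409 to 0.536, 0.386 to 0.515 and 0.416 to 0.478. These ratios restate the values of the 7 genes and were not tested.

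**Figure D3:**
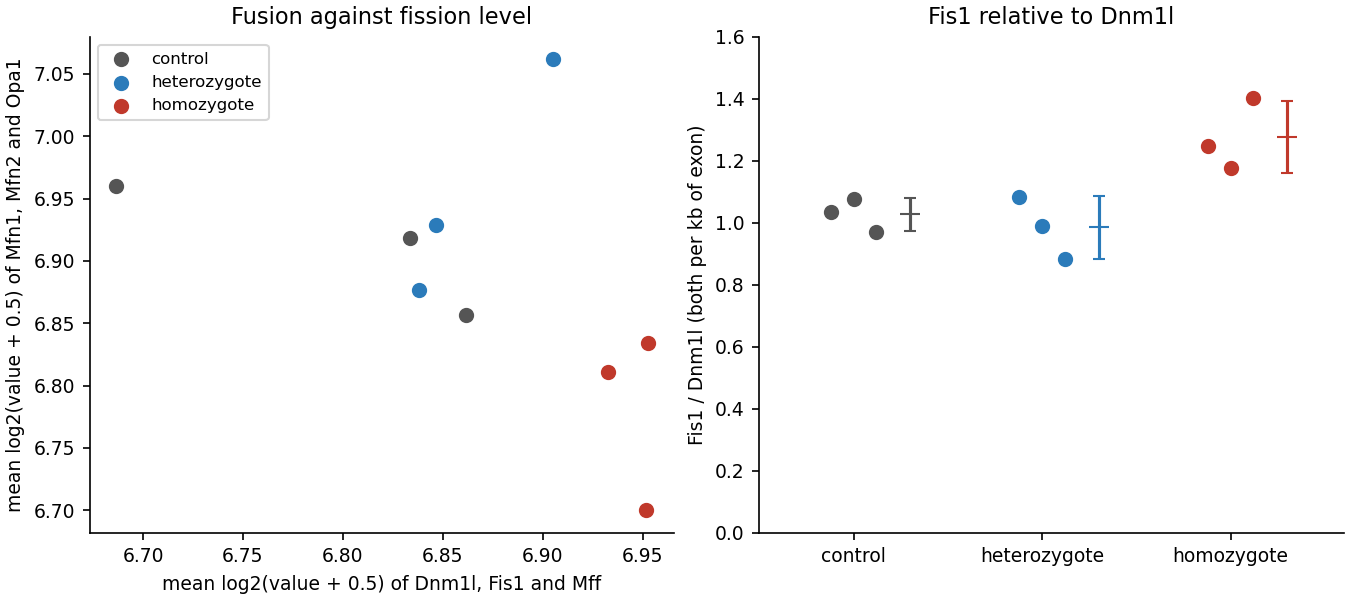
Left, mean log2(value + 0.5) of the 3 fusion genes (y axis) against that of the 3 fission genes (x axis), one point per library; right, the ratio of *Fis1* to *Dnm1l*, both per kb of exon, with mean and SD of 3 libraries. Homozygote libraries lie at the lower right on the left and between 1.18 and 1.40 on the right.

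The fold changes between homozygotes and controls depended on gene length across the whole table. The median log2 difference was 0.21 among the shortest genes, in the bin with a median exonic length of 714 bases, and -0.20 among the longest, with a median of 12129.5 bases. Of the 7 genes, *Fis1*, at 1714 bases, is the shortest and *Opa1*, at 7875 bases, the longest. Between them are *Mfn1* at 5905, *Mfn2* at 5194, *Dnm1l* at 4185, *Mff* at 4091 and *Oma1* at 2144. The trend at their lengths was 0.068 for *Fis1*, -0.069 for *Mfn1* and -0.11 for *Opa1*. The difference from controls had the sign of the trend except in *Oma1* (-0.29, trend 0.050) and *Mff* (0.21, trend -0.019). With the trend removed in each library, *Fis1* differed from controls by 0.21 (adjusted p = 0.0577, limma) and from heterozygotes by 0.18 (adjusted p = 0.0898, limma). *Mfn1* differed from heterozygotes by -0.19 (adjusted p = 0.0769, limma), and *Mff* from controls by 0.23 (adjusted p = 0.0462, limma). *Opa1*, the gene that this removal moved most, then differed from controls by -0.079 (adjusted p = 0.464, limma) and from heterozygotes by -0.098 (adjusted p = 0.348, limma), and *Mfn1* from controls by -0.094 (adjusted p = 0.408, limma). *Fis1*, *Mff* and *Oma1* lay outside the middle 50% of genes of their length, with *Oma1* lower than controls where genes of its length were on the whole higher.

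**Figure D4:**
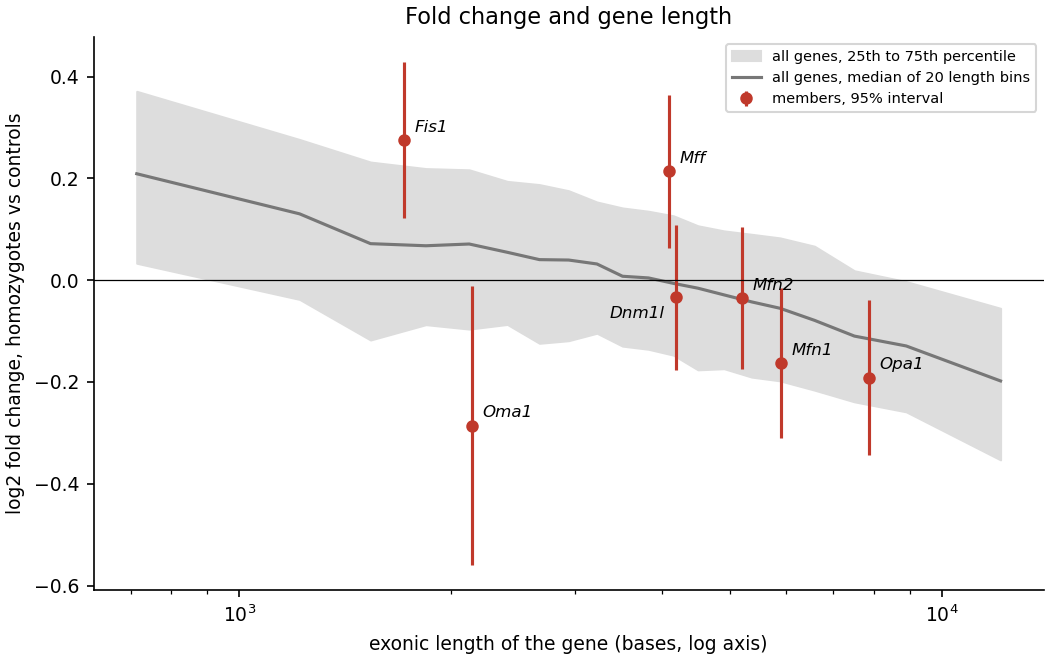
Log2 fold change between homozygotes and controls (y axis) against exonic gene length (x axis, log scale); the grey line and band are the median and the 25th to 75th percentiles of all genes in 20 bins of length, and red points are the 7 genes with 95% intervals. The median runs from 0.21 in the shortest bin to -0.20 in the longest, with *Fis1* and *Mff* above the band and *Oma1* below it.

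The rest of the mitochondrial dynamics pathway was taken from a list of 62 genes, of which 60 were in the table and 53 were not among the 7. Between homozygotes and controls, 8 of these 53 were called, 5 higher and 3 lower, a share of 15.1% beside the 15.2% of all genes, with a median log2 difference of 0.033 beside -0.0011 for all genes. Between homozygotes and heterozygotes it was 9 of 53, 6 higher and 3 lower, or 17.0% beside 13.6%. Between heterozygotes and controls it was 0 of 53 by limma, beside 0.143% of all genes, with 2 genes at an unadjusted p under 0.05, beside 7.37% of all genes.

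Of 14 further fission genes, 1 was called against controls, or 7.14% beside the 15.2% of all genes. It was *Mtfp1*, encoding an inner membrane protein that promotes fission, at 9.81, 9.14 and 9.28 in controls, 12.8, 14.1 and 11.9 in heterozygotes and 14.8, 13.6 and 11.9 in homozygotes. It rose in homozygotes by 0.49 (SE 0.13, adjusted p = 0.0194, limma), while DESeq2 gave an adjusted p of 0.0638. Heterozygotes were also above all controls, by 0.43 with an adjusted p of 0.370 (limma), and homozygotes overlapped heterozygotes, with a difference of 0.055 (adjusted p = 0.824, limma). Against heterozygotes 3 fission genes were called, or 21.4% beside 13.6%: *March5*, a ubiquitin ligase of the outer membrane, and *Spire1*, an actin nucleator, were higher in homozygotes by 0.28 and 0.30 (adjusted p = 0.0354 and 0.0475, limma). DESeq2 gave *Spire1* an adjusted p of 0.149 there, and its difference from controls was 0.11 with overlap (adjusted p = 0.469, limma). *Akap1*, an outer membrane anchor of protein kinase A, was lower, with a difference of -0.40 (adjusted p = 0.0389, limma). Neither *March5* (0.19, adjusted p = 0.128, limma) nor *Akap1* (-0.27, adjusted p = 0.143, limma) was called against controls, and both overlapped them. Mean values in controls, heterozygotes and homozygotes were 93.5, 87.6 and 107 for *March5* and 60.8, 66.6 and 50.7 for *Akap1*.

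Of 13 further fusion and OPA1 processing genes, 1 was called against controls, and it was higher, or 7.69% beside 15.2% of all genes. *Mtch2*, an outer membrane carrier homologue linked to fusion, measured 140, 143 and 136 in controls, 146, 151 and 145 in heterozygotes and 174, 167 and 180 in homozygotes. It rose by 0.31 against controls (SE 0.054, adjusted p = 0.00219, limma) and by 0.23 against heterozygotes (adjusted p = 0.0123, limma), in the direction opposite to *Mfn1* and *Opa1*. The OPA1 proteases and prohibitins of the list did not pass the test.

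Of 7 genes of MICOS, the complex that holds the cristae junctions at the inner membrane, 2 were called against controls and both were higher, or 28.6% beside 15.2% of all genes, a gap of 1 or 2 genes in so short a list. The median difference over the 7 was 0.12. *2410015M20Rik*, now named *Micos13*, measured 49.1, 47.0 and 51.1 in controls, 58.6, 48.8 and 49.2 in heterozygotes and 69.8, 71.5 and 68.2 in homozygotes, a rise of 0.51 (SE 0.078, adjusted p = 0.00105, limma). *Chchd3*, the MIC19 subunit, rose by 0.30 (SE 0.057, adjusted p = 0.00405, limma), from 129 ± 5.61 to 158 ± 5.27. Both were also called against heterozygotes, by 0.42 and 0.25. With the length trend removed *2410015M20Rik* differed by 0.32 from controls (adjusted p = 0.0235, limma) and by 0.27 from heterozygotes (adjusted p = 0.0502, limma).

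Of 9 genes for the transport of mitochondria along microtubules, 3 were called against controls and all were lower, or 33.3% beside 15.2% of all genes, with a median of -0.084. *Kif1b*, a kinesin motor, measured 199, 195 and 222 in controls, 197, 211 and 201 in heterozygotes and 154, 173 and 157 in homozygotes, a difference of -0.35 (SE 0.065, adjusted p = 0.00376, limma). *Rhot1*, the outer membrane GTPase Miro1 that links mitochondria to motors, differed by -0.28 (adjusted p = 0.0148, limma), and *Kif5b*, the heavy chain of kinesin-1, by -0.24 (adjusted p = 0.0269, limma). *Kif1b* and *Rhot1* were also called against heterozygotes, by -0.33 and -0.30, and *Kif5b* was not (-0.18, adjusted p = 0.0962, limma). These are long genes, with a median exonic length of 7077 bases in the list against 3669 over all genes. With the length trend removed the differences from controls were -0.089 for *Kif1b* (adjusted p = 0.326, limma), -0.18 for *Rhot1* (adjusted p = 0.0904, limma) and -0.14 for *Kif5b* (adjusted p = 0.156, limma). The calls of *2410015M20Rik*, *Chchd3*, *Mtch2* and *Mtfp1* against controls remained past the threshold.

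Of 10 mitophagy genes, 1 was called against controls, or 10% beside 15.2% of all genes. It was *Map1lc3b*, the autophagosome protein LC3B, which rose by 0.30 (SE 0.069, adjusted p = 0.0107, limma) and differed from heterozygotes by 0.21 (adjusted p = 0.0664, limma). *Bnip3l*, the mitophagy receptor NIX known for clearing mitochondria from maturing red cells, was called against heterozygotes, higher by 0.21 (adjusted p = 0.0442, limma), with 252, 245 and 221 in homozygotes beside 196, 207 and 215 in heterozygotes and 212, 224 and 201 in controls. Erythroid marker sums in the same libraries were 82920, 69485 and 62677, also highest in the deepest homozygote library, and their part in the result was not tested.

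**Figure D5:**
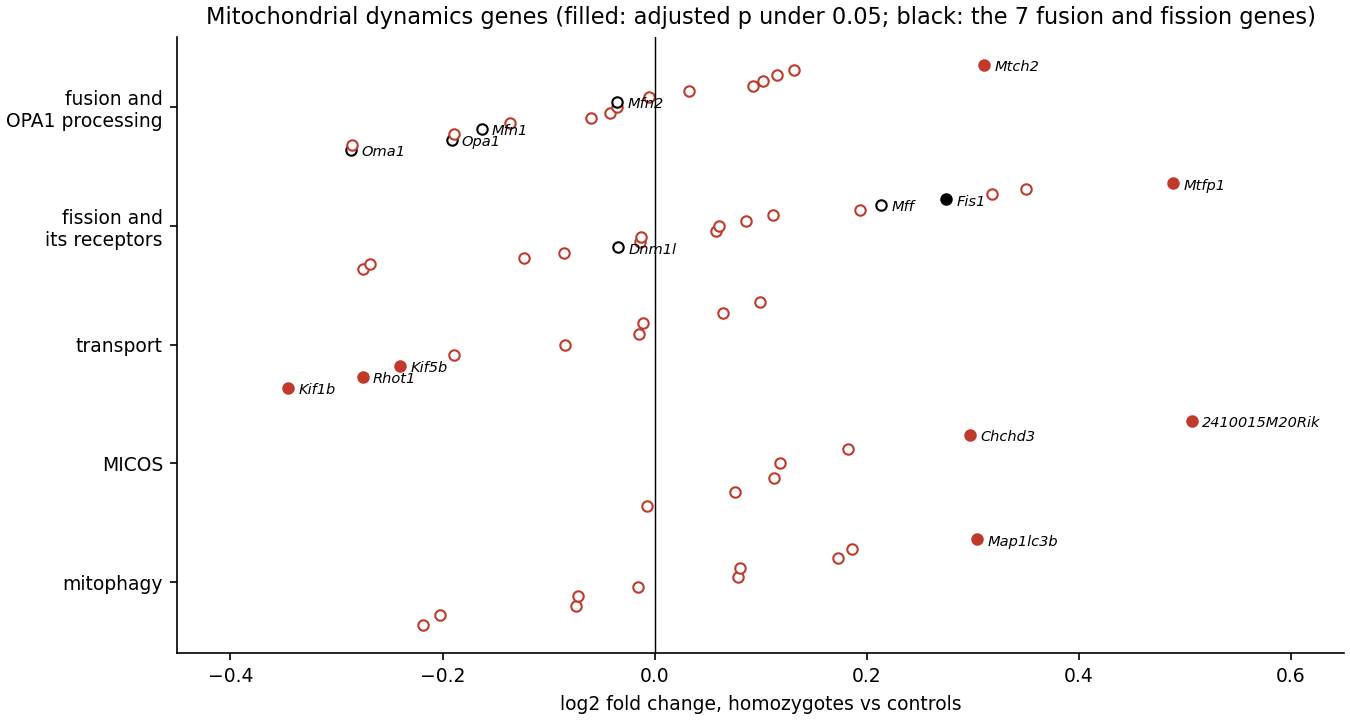
Log2 fold change between homozygotes and controls (x axis) of 60 mitochondrial dynamics genes by role; filled points have an adjusted p under 0.05 over all genes, black marks the 7 fusion and fission genes, and vertical spread within a role only separates the points. Filled points lie to the left of 0 in the transport genes (-0.24 to -0.35) and to the right elsewhere, from *Fis1* at 0.28 to *2410015M20Rik* at 0.51.

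Genes with the pattern most like that of 6 of the 7 were taken by Pearson's r of log2(value + 0.5) over the 9 libraries, among the 9846 genes whose mean was 10 or more. The 9 points share 3 genotypes and the depth of their libraries, so a high r includes any difference between genotypes. For *Fis1* they were *Arhgef26* and *Cox17*, a copper chaperone of cytochrome c oxidase, both at r = 0.970. For *Mff* they were *Gins1* (r = 0.973) and *1810037I17Rik* (r = 0.965). On the fusion side, *Mfn1* was most like *Dhcr7* and *Pgm5*, both at r = 0.965, *Mfn2* like *Ldb3* (r = 0.979) and *Camta2* (r = 0.959), and *Opa1* like *Chd2* (r = 0.981) and *Tspan2* (r = 0.979). *Ldb3* encodes a Z-disc protein of striated muscle. *Oma1* was most like *Fam120a* (r = 0.944) and *Cbx5* (r = 0.923). Among the 7 themselves, *Fis1* ran with *Mff* (r = 0.743) and opposite to *Opa1* (r = -0.878) and *Mfn1* (r = -0.748), while its r was -0.36 with *Mfn2* and -0.35 with *Dnm1l*. *Dnm1l*, a fission gene, ran with the fusion genes *Mfn2* (r = 0.710), *Mfn1* (r = 0.589) and *Opa1* (r = 0.537), and *Mfn1* with *Opa1* (r = 0.835) and *Mfn2* (r = 0.772).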

How the data were processed

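RNA-seq libraries of E10.5 hearts (3 pools of 6 hearts per genotype) were made with a TrueSeq kit. Per the labels, the authors used CASAVA 1.8, cutadapt 1.6.1, RSEM 1.20, Bowtie2 0.12.7 and limma on NCBIM37. The deposited values are a normalized signal per gene: in each library they equal (reads + 0.5) multiplied by one library factor, which gave whole reads for 100% of values (tolerance 0.001). Homozygote columns carry their sample titles. Columns headed DH were taken as heterozygotes, named double heterozygous in the growth protocol, and columns headed Het as controls, which the study's methods give as Ctcf fl/+ without Cre; the study's own group averages equal the means of these columns. This assignment is to a genotype and not to single samples, and by its header alone Het could be read as the heterozygote group. All 14011 genes were fitted with limma 3.58.1 (trend) on log2(value + 0.5) in R 4.3.3, with 3 groups and 9 libraries in one fit and Benjamini-Hochberg adjustment over all genes; fold changes are on this scale, which understates the change of low genes. A gene was called at an adjusted p under 0.05. edgeR 4.0.16 and DESeq2 1.42.0 on recovered reads were alternatives. The main limma fit, edgeR and the length removal were tried on simulated data, and DESeq2 and the other alternatives were not. Exonic lengths and positions came from GENCODE M1 (Ensembl 65), for 13987 genes. Length trends were removed per library by loess. Copies were searched with BLAST 2.17.0, promoters came from RefSeq. The members and lists were chosen with earlier results of these data known, and the 4 motifs after the promoter sequences had been seen. All 7 genes were named, with the pathway genes called in any comparison and the 2 genes most like each member, which for *Dnm1l* are not reported here. Replicates differed by more than sampling noise, with a chi-square per degree of freedom of 3.22 to 7.15. Precision was limited by 3 pools per genotype.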

Additional observations from a re-analysis of the deposited data

How the results depend on the processing

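The direction of *Fis1*, *Mff*, *Mfn1*, *Opa1* and *Oma1* in homozygotes was the same under all 21 alternatives, against controls and against heterozygotes, while the calls were not. Of the 7 genes, 1 was called against controls: this became 2 with only genes of value 1 or more in all libraries, with genes of mean value 5 or more and with quantile normalization, 0 with limma without the trend and with the length trend removed together with a replicate block, and 0 to 2 with a library left out. The 2 genes called against heterozygotes became 0 without the trend, with DESeq2, with the length trend removed and with that removal together with the block, 1 with the replicate block alone, and 0 to 2 with a library left out. For the 60 pathway genes, the 9 calls against controls became 3 with length trend and block, and 4 to 11 with a library left out; the 11 calls against heterozygotes became 3 without the trend, 6 with the length trend removed, 6 with the block, 3 with both, and 4 to 11 with a library left out. Over all genes, the 2133 calls against controls became 1196 without the trend, 1232 with length trend and block, 1049 without the control library of 6698891 reads and 1267 without the homozygote library of 11629365 reads. The 1901 against heterozygotes became 1063 without the trend, 1023 without that homozygote library, and 1257 and 1223 without the heterozygote libraries of 7946683 and 4294537 reads, so the shares of 15.2% and 13.6% moved by over 1.5 times. The fusion minus fission difference was -0.28 between homozygotes and controls (-0.20 with the length trend removed, -0.34 to -0.20 with a library left out) and -0.26 between homozygotes and heterozygotes (-0.19 and -0.28 to -0.21).

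Signs turned only for differences that had not passed the test in the comparison concerned. *Mfn2* against controls was 0.016 with the length trend removed, with or without the block, and ran from -0.073 to 0.019 with a library left out, positive without the homozygote library of 11629365 reads; *Dnm1l* ran from -0.076 to 0.0029, positive without that of 4437234 reads. Between heterozygotes and controls, *Opa1* was 0.019 with the length trend removed, with or without the block, and ran from -0.077 to 0.035 with a library left out, positive without the control library of 6698891 reads (0.034), the heterozygote library of 9896345 reads (0.035) or that of 7946683 reads (0.0042), and *Fis1* ran from -0.043, without the control library of 6698891 reads, to 0.070.

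Libraries with the same column number showed no shared deviation (r from -0.043 to 0.085 over genes). With 3 libraries per genotype this cannot tell whether pools of the same number were prepared together. Under the block *Mfn1* against heterozygotes had an adjusted p of 0.0549 (limma), and *Fis1* kept both calls. The length removal with the block and the leave-one-out of the fusion minus fission level were added after seeing the data. The causes of these shifts were not tested. *Oma1* had the fewest reads of the 7 genes, 55 to 176 per library.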
